A study of Mus musculus with 12 samples.

Results

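Aqp4, Dag1, Dtna, Dmd, Mlc1 and Hepacam encode the water channel of the astrocyte endfoot and 5 proteins that hold it, or stand beside it, at the endfoot membrane. These 6 genes were measured by RNA sequencing of mouse cerebral cortex, out of 34193 genes in the deposited table and 14397 with enough reads to be tested. They were selected on measured values: Aqp4 had been found higher in Nsd1 mutant cortex, and the other 5 were added for their known role, to ask whether Aqp4 moved with its anchoring partners. The difference between genotypes in the 6 genes is therefore given as a description without a test, and tests are kept for contrasts that played no part in the choice.

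Total RNA depleted of ribosomal RNA came from mice aged 8 weeks in 2 groups of 6 libraries. All mice carried loxP-flanked Nsd1 on both alleles (Nsd1 flx/flx), the gene of a histone H3 methyltransferase. The conditional knockout mice (cKO) also carried a Nestin-Cre transgene, which recombines in progenitors of neurons, astrocytes and oligodendrocytes, and the controls had no Cre (Nestin-cre -/-). The presence of Cre and the loss of Nsd1 cannot be told apart in this design. The labels call the samples biological replicates of both sexes without naming animals, so errors and p-values reflect the spread among the samples, which may in part be technical. In each group, Y-linked genes summed to over 100 normalised reads in libraries 1 to 3 of the table, and to less in libraries 4 to 6, which are called libraries without Y-linked reads.

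Astrocyte endfeet wrap the vessels and the surface of the brain, and aquaporin-4 is their main route for water. In the endfoot membrane the channel is gathered by the dystrophin-associated complex: dystroglycan (Dag1) spans the membrane and binds laminin and agrin of the basement membrane outside, dystrophin (Dmd) binds dystroglycan inside, and alpha-dystrobrevin (Dtna) belongs to the part of the complex that links it to aquaporin-4. MLC1 and its chaperone GlialCAM (Hepacam) form a neighbouring complex at astrocyte junctions, and defects in either cause a leukoencephalopathy with brain swelling and cysts. Dystroglycan and dystrophin are also made by neurons and vascular cells, so their level in whole cortex is not that of astrocytes alone. In bulk cortex, fewer cells of a type and less RNA per cell cannot be told apart.

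Control libraries held 10.5 to 21.1 M reads in genes and cKO libraries 14.6 to 27.0 M, and 3 reads corresponded to 1.98 to 5.64 normalised reads, far below the level of any of the 6 genes. Normalised reads are reads per gene scaled between libraries, and all differences below are on the log2(normalised reads + 1) scale unless a ratio is named. Nsd1, the targeted gene, stood at 4235 ± 850 normalised reads in control cortex against 3251 ± 299 in cKO cortex (SD, n = 6 each), a log2 difference of -0.36 (SE 0.12) that was not called by limma (adjusted p = 0.383). Its groups overlapped in range, and the value covers the whole gene, not the deleted part alone. The share of mitochondrial ribosomal RNA was 14.2% for control library 4 and 11.5% for control library 5, against 1.46% to 6.00% in the other 10 libraries. Astrocyte markers were plainly present, with 12 of 12 above the filter, as were markers of neurons, oligodendrocytes, microglia and vessels.

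The water channel was the gene of the 6 that stood apart by genotype. Aqp4 measured 2107, 1971, 1996, 2678, 2084 and 1818 normalised reads in control libraries 1 to 6. In cKO libraries 1 to 6 it measured 3122, 3100, 2985, 3500, 2829 and 2673 normalised reads. The groups met at a single pair of libraries: the lowest cKO library, at 2673, lay just under the highest control library, at 2678, and 5 of 6 cKO libraries were above all controls. The means were 2109 ± 297 and 3035 ± 284 normalised reads (SD, n = 6 each), a ratio of 1.44 and a log2 difference of 0.53 (SE 0.10, 95% interval 0.33 to 0.74). This difference chose the gene and is not tested here. In the authors' deposited table the log2 fold change of Aqp4 is 0.53 (their standard error 0.10). Control library 4, which holds the highest control level, is also the library with the most mitochondrial ribosomal RNA. Without it the log2 difference was 0.61, and without both control libraries 4 and 5 it was 0.64.

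Dag1, the transmembrane anchor, measured 2020, 2101, 1348, 1464, 1409 and 1535 normalised reads in control libraries 1 to 6. In cKO libraries 1 to 6 it measured 1889, 2076, 1696, 1575, 1987 and 1750. Control libraries 1 and 2 stood well above the other 4 controls, and 6 of 6 cKO libraries lay within the control range. The means were 1646 ± 328 and 1829 ± 188 normalised reads (SD, n = 6 each), a log2 difference of 0.17 (SE 0.11, 95% interval -0.06 to 0.40). It was the partner with the highest estimate. That estimate was 0.09 without control library 3, the lowest in Dag1, and 0.23 without control library 2, the highest control. Without control libraries 4 and 5 it was 0.11.

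Dtna, which encodes alpha-dystrobrevin, measured 2631, 2787, 2661, 3487, 3130 and 2822 normalised reads in control libraries 1 to 6. In cKO libraries 1 to 6 it measured 2611, 2838, 3012, 2746, 2694 and 2711. Control libraries 4 and 5 were the highest, and 5 of 6 cKO libraries lay within the control range. The means were 2920 ± 330 and 2769 ± 140 normalised reads (SD, n = 6 each), a log2 difference of -0.07 (SE 0.08, 95% interval -0.24 to 0.10). The estimate depended on the same 2 control libraries, at 0.02 without them.

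Dmd, the gene of dystrophin, measured 1511, 1783, 1180, 1903, 1815 and 1422 normalised reads in control libraries 1 to 6. In cKO libraries 1 to 6 it measured 1424, 1626, 1537, 1594, 1615 and 1658, so that 6 of 6 cKO libraries lay inside the wider control range. The means were 1602 ± 278 and 1576 ± 84.5 normalised reads (SD, n = 6 each), a log2 difference of -0.01 (SE 0.10, 95% interval -0.22 to 0.21). The gene has several promoters, among them that of the short Dp71 form of glia, and Dtna has several isoforms. Values per gene do not separate them.

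Mlc1, the membrane protein of the junction complex, measured 2808, 2565, 3718, 3583, 3657 and 3670 normalised reads in control libraries 1 to 6. In cKO libraries 1 to 6 it measured 3091, 2947, 3935, 3663, 2954 and 3385. Its means were nearly equal, at 3333 ± 509 and 3329 ± 406 normalised reads (SD, n = 6 each), with a ratio of 0.999 and a log2 interval of -0.22 to 0.23. Control libraries 1 and 2, the highest controls for Dag1, were the lowest for Mlc1.

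Hepacam, which encodes GlialCAM, measured 1560, 1492, 1656, 1928, 1890 and 2035 normalised reads in control libraries 1 to 6. In cKO libraries 1 to 6 it measured 1627, 1698, 1875, 1253, 1668 and 1861. The cKO library with the lowest Hepacam, number 4, was the one with the highest Aqp4. The means were 1760 ± 221 and 1664 ± 226 normalised reads (SD, n = 6 each), a log2 difference of -0.08 (SE 0.11, 95% interval -0.31 to 0.14), and 0.01 without cKO library 4.

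**Figure D1:**
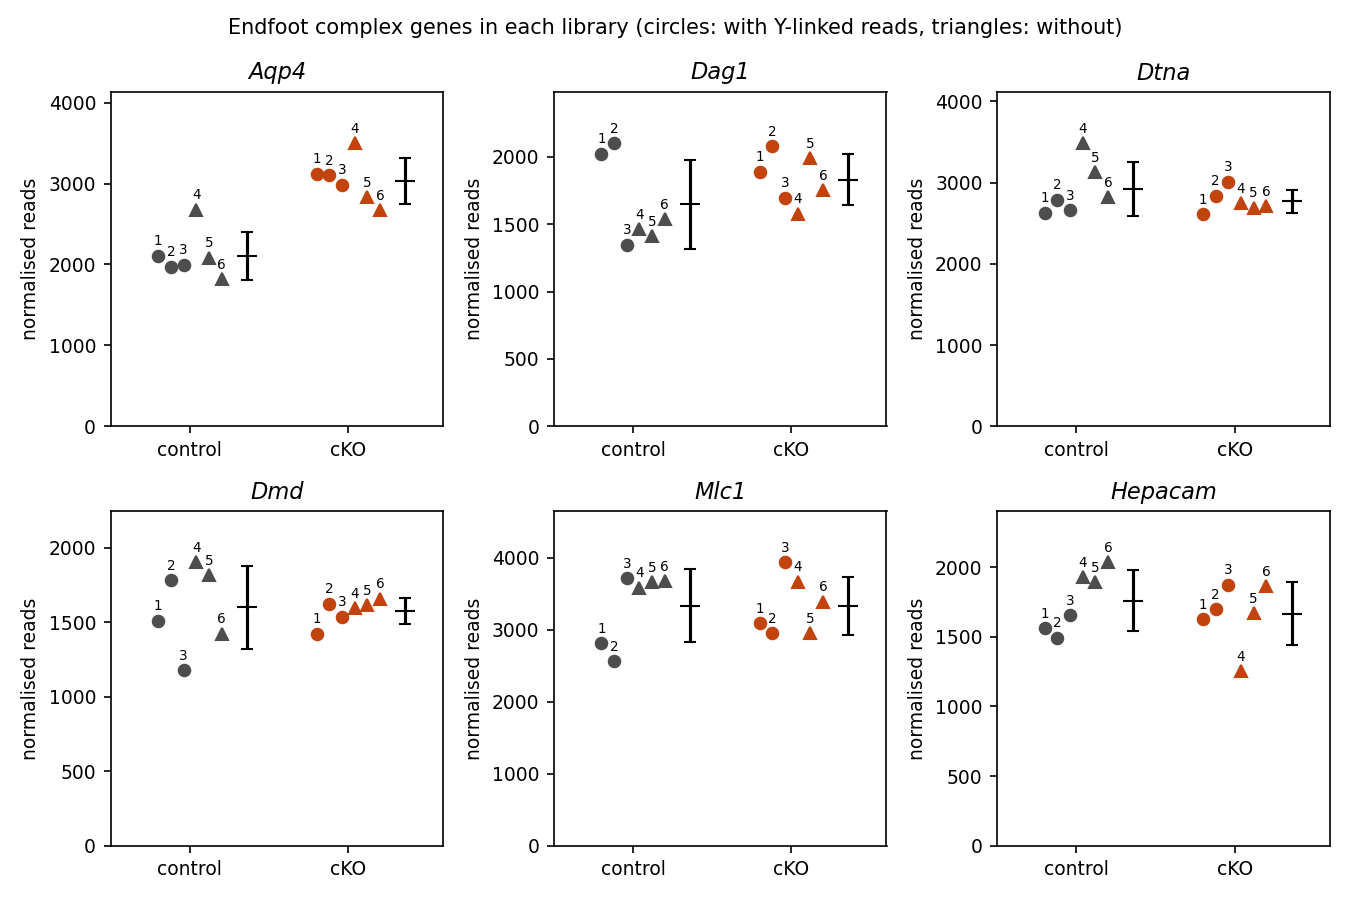
Normalised reads (vertical axis, from 0) of each of the 6 genes in the 6 control and 6 cKO libraries, numbered as in the table, with circles for libraries with Y-linked reads, triangles for those without, and mean ± SD at the right of each group. For Aqp4 the cKO libraries lie between 2673 and 3500 and the controls between 1818 and 2678, while for the other 5 genes at least 5 of 6 cKO libraries fall inside the control range.

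Of the 6 genes, 1, Aqp4, is among the genes called higher in the cKO (limma adjusted p under 0.05), as 0.764% of all tested genes were, or 110 of 14397. In either direction 0.834% of tested genes were called, 120 in all. None of the 6 had every cKO library above every control library (0 of 6), against 0.813% of all tested genes, or 117. Nothing is read from these counts, because that contrast chose Aqp4. The 5 partners added together gave 11262 ± 773 normalised reads in the controls, from 10530 to 12365, and 11166 ± 506 in the cKO, from 10642 to 12055 (SD, n = 6 each). The summed partners thus had almost the same mean in both genotypes and fully overlapping ranges.

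Under the other processing settings the log2 difference of Aqp4 ran from 0.50 to 0.64, and from 0.48 to 0.61 with single libraries left out. Those of the partners ran from -0.18 (Dtna) to 0.17 (Dag1), and from -0.13 to 0.23 with single libraries left out. The value of -0.18 came with a trend on exon length removed (all exons of a gene joined). The signs of Dtna, Dmd, Mlc1 and Hepacam were not kept in all of these settings.

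**Figure D2:**
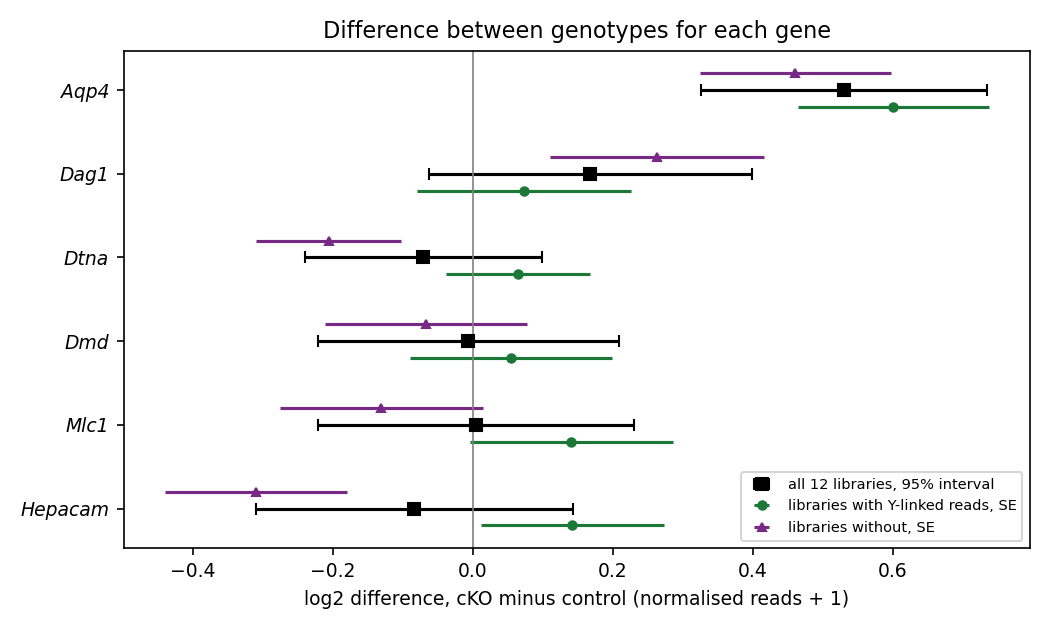
Log2 difference between cKO and control (horizontal axis, on normalised reads + 1) for each of the 6 genes, as black squares with 95% intervals from all 12 libraries, green circles with SE for the libraries with Y-linked reads and purple triangles with SE for those without. Aqp4 lies at 0.53, with 0.60 and 0.46 in the sets, and the 5 partners have intervals from all 12 libraries that cross 0.

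Whether Aqp4 moved apart from its partners within each library was described by their ratio, which carries the same contrast and is likewise untested. The log2 ratio of Aqp4 to Dtna had a mean of -0.47 ± 0.12 in control cortex against 0.13 ± 0.15 in cKO cortex (SD, n = 6 each), with every cKO library above every control. In linear terms Aqp4 had 0.720 times the reads of Dtna in the controls and 1.09 times in the cKO. For Hepacam the mean log2 ratio was 0.26 ± 0.24 in the controls and 0.87 ± 0.33 in the cKO, again without overlap, though by a gap of only 0.05. The ratios to Dmd (0.40 to 0.94), Mlc1 (-0.66 to -0.13) and Dag1 (0.37 to 0.73) were higher on average in the cKO and overlapped between groups. Dag1 had the widest overlap, since control library 4, at 0.87, lay above 5 of 6 cKO libraries. Against the sum of the 5 partners, Aqp4 stood at 0.186 in the controls and 0.271 in the cKO, and every cKO library was above every control library. Since Aqp4 alone nearly separated the groups, a ratio without overlap says little about the partner. The share of all genes whose ratio with Aqp4 does not overlap was not computed.

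**Figure D3:**
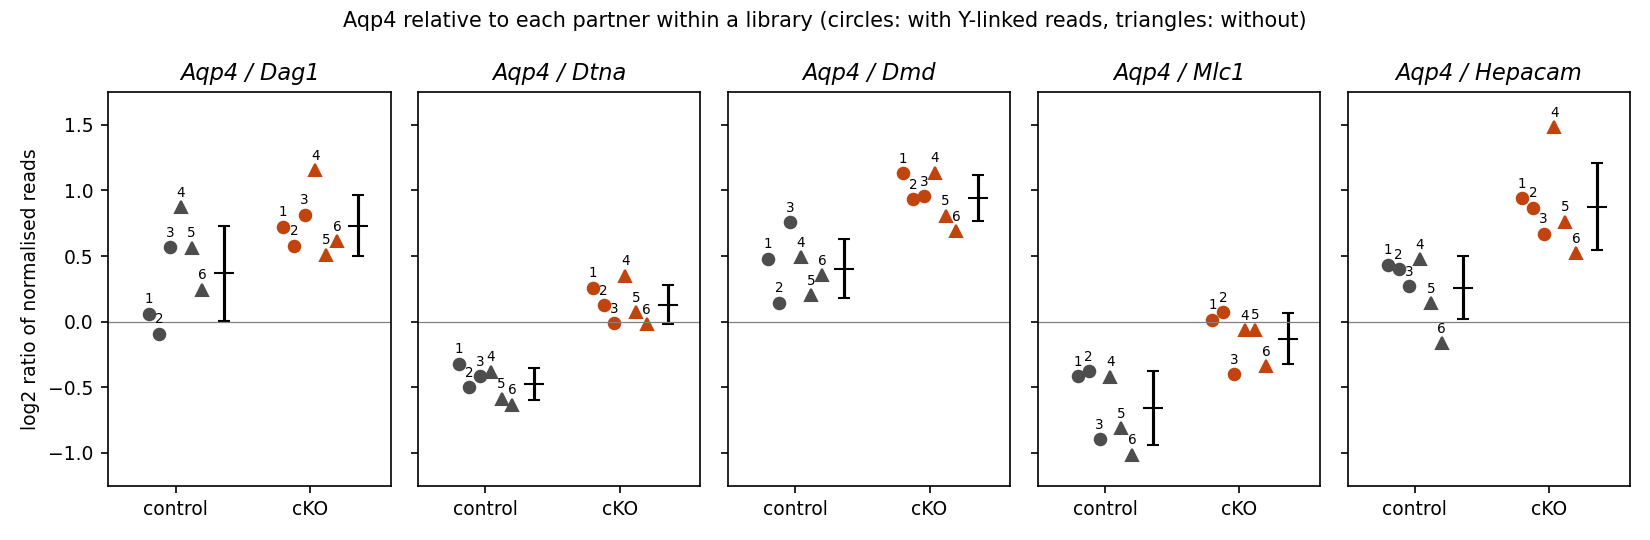
Log2 ratio of the normalised reads of Aqp4 to those of each partner within a library (vertical axis) in the 6 control and 6 cKO libraries, numbered as in the table, with mean ± SD at the right of each group. The groups do not overlap for Dtna and Hepacam, and they overlap for Dag1, Dmd and Mlc1.

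Levels can be compared between genes only per length, here as normalised reads per kb of exon (all exons of a gene joined, from GENCODE annotation of GRCm38). Mlc1 was the highest of the 6, at 1190 per kb in the controls and 1189 in the cKO. Hepacam followed, with 526 per kb in the controls (446 to 608) and 497 in the cKO (374 to 560). Aqp4 stood at 338 per kb in the controls (292 to 430), below the range of Hepacam, and at 487 in the cKO (429 to 562), where the ranges of both genes overlapped over most of their length. Dag1 came next at 259 and 288 per kb, and its control range of 212 to 330 met that of Aqp4, while its cKO range of 248 to 327 did not. Dtna, at 172 and 164 per kb, and Dmd, at 67.3 and 66.2, were lowest, and neither range met that of the gene above it. Both are long genes with short isoforms, for which this length gives a low value. With the longest coding transcript as the length, a choice made after the data had been seen, the order in the controls was Mlc1, Hepacam (526), Dtna (464), Aqp4 (417), Dag1 (291) and Dmd (107). By that length Aqp4, at a mean of 600 per kb, was second to Mlc1 in the cKO, above Hepacam (497) and Dtna (440). The cKO ranges of Aqp4 (529 to 693) and Hepacam (374 to 560) overlapped. So did the control ranges of Aqp4 (360 to 530), Dtna (418 to 554) and Hepacam (446 to 608).

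The spread within a group differed between the members. In the controls the coefficient of variation ran from 11.3% for Dtna to 19.9% for Dag1, with 14.1% for Aqp4. In the cKO it ran from 5.06% for Dtna and 5.36% for Dmd to 13.6% for Hepacam, with 9.37% for Aqp4. By SD, at 84.5 normalised reads, Dmd varied least among the cKO libraries, between 1424 and 1658 normalised reads, against 1180 to 1903 in the controls.

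A pair of contrasts that the choice of genes did not use could be tested across all genes. The first asks whether the effect of genotype differed between libraries with and without Y-linked reads. Among libraries with Y-linked reads, the log2 difference of Aqp4 between genotypes was 0.60 (SE 0.14), and among those without it was 0.46 (SE 0.14). The difference between the sets, 0.14 (95% interval -0.27 to 0.55), did not pass (limma adjusted p = 0.809). The estimates within the sets are parts of the contrast that chose Aqp4, so nothing is read from their sign. Each set holds 3 libraries per genotype.

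For 4 of the 5 partners the estimates had opposite signs in the 2 sets, and the share of all genes with opposite signs was not computed. Hepacam had 0.14 (SE 0.13) with Y-linked reads and -0.31 (SE 0.13) without, a difference of 0.45 (95% interval 0.06 to 0.84) that did not pass over all genes (limma adjusted p = 0.562, unadjusted p = 0.0268). Without cKO library 4 that difference was 0.29. Dtna had 0.06 and -0.21 in the 2 sets (SE 0.10 each, difference 0.27, limma adjusted p = 0.565). Mlc1 had 0.14 and -0.13 (SE 0.15 each, difference 0.27, limma adjusted p = 0.648). Dmd had 0.05 and -0.07 (SE 0.14 each, difference 0.12, limma adjusted p = 0.845). For Dag1 the estimate was 0.07 with Y-linked reads and 0.26 without (SE 0.15 each, difference -0.19, limma adjusted p = 0.770). With single libraries left out the difference of Dag1 ran from -0.39 (without control library 3) to -0.075 (without control library 2). The set without Y-linked reads holds control libraries 4 and 5, which had the most mitochondrial ribosomal RNA (14.2% and 11.5%), the fewest reads (10.5 and 13.5 M) and the highest Dtna and Dmd. Without them the difference between sets was 0.12 for Dtna, -0.14 for Dmd and 0.51 for Hepacam, and the part of RNA quality or depth was not tested. None of the 6 genes passed (0 of 6), and over all genes 0% did: limma called 0 of 14397, edgeR 0 and DESeq2 3, while 1263 genes had an unadjusted limma p under 0.05.

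The second contrast compares libraries with and without Y-linked reads at equal genotype. Aqp4 differed by -0.03 on the log2 scale between the sets (95% interval -0.23 to 0.18, limma adjusted p = 0.926). Dag1 had the largest difference among the 6 genes, 0.19 higher with Y-linked reads (limma adjusted p = 0.490), and 0.13 higher without control library 2. Dmd (-0.15), Mlc1 (-0.15), Hepacam (-0.09) and Dtna (-0.08) were lower with Y-linked reads, with limma adjusted p from 0.552 to 0.751. None of the 6 passed (0 of 6), against 0.0764% of all genes, or 11 called by limma, 11 by edgeR and 60 by DESeq2, with 1689 at an unadjusted limma p under 0.05.

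Within a genotype the contrast that chose Aqp4 plays no part, so covariation across the 6 libraries of a group was tested for the 5 partners in both groups, 10 relations in all. None passed after adjustment by exact permutation of the pairings (two-sided, smallest adjusted p = 0.306, for Pearson r). For Spearman rho, the smallest p that 6 libraries can give is 0.00278. The strongest relation was inverse: Aqp4 and Hepacam had a Pearson r of -0.84 in the cKO (exact permutation p = 0.0306, adjusted p = 0.306) and a Spearman rho of -0.71 (exact permutation p = 0.136). Without cKO libraries 4 and 6, the farthest from the median of Aqp4, r was -0.15, and over all controls it was 0.17. Aqp4 and Dtna had an r of 0.77 in the controls (exact permutation p = 0.0958, adjusted p = 0.479) and of 0.04 in the cKO. Without control libraries 4 and 6 r was 0.22, and rho over all controls was 0.20. Leaving out the libraries farthest in Aqp4 narrows its range, so a fall in r does not show that a relation rested on them. For Dmd r was 0.55 in the controls and -0.33 in the cKO, for Dag1 -0.18 and -0.35, and for Mlc1 0.12 and 0.22. With the trend with exon length removed, r with Dmd was 0.61 in the controls and -0.82 in the cKO. In that setting r in the cKO was -0.79 for Hepacam, -0.54 for Dag1, -0.41 for Dtna and 0.45 for Mlc1. These r were not tested. With 3 libraries in each set by Y-linked reads, no r within those sets can be given.

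All 15 pairs of the 6 genes were then examined in both groups, a family of 30 relations added after the data had been seen, of which none passed (smallest adjusted p = 0.292, exact permutation). Dag1 and Mlc1, the anchor of one complex and the core of the other, ran in opposite directions among the cKO libraries, with r = -0.89 (exact permutation p = 0.0264, adjusted p = 0.292) and rho = -0.94. Without cKO libraries 4 and 2, the farthest from the median of Dag1, r was -0.94. With the trend of each library with exon length removed, r was -0.89. In the controls, libraries 1 and 2 had Dag1 at 2020 and 2101 and Mlc1 at 2808 and 2565 normalised reads, apart from the other 4, which had Dag1 from 1348 to 1535 and Mlc1 from 3583 to 3718. Those 6 points form separate clusters, so no r is read from them.

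Over the 12 libraries, after the means of the 4 groups by genotype and Y-linked reads were removed, the genes whose pattern was most like that of Aqp4 among 11403 ranked were Ppp1r12b (r = 0.94), Capza1 (0.93), Crispld1 (0.93), Flna (0.92) and Pkd2 (0.92). These values are descriptive, over libraries that share depth and processing. They are the highest r of 11403 genes over only 12 libraries, and the top r expected among unrelated genes was not computed. Ppp1r12b encodes a regulatory subunit of myosin phosphatase, Capza1 an actin capping subunit, Flna the actin cross-linker filamin A and Pkd2 polycystin-2. None of the 5 was called between genotypes (limma adjusted p from 0.476 to 0.989). In that order Dtna ranked 854 (r = 0.60), Dmd 2754 (0.35), Mlc1 5369 (0.05), Dag1 6919 (-0.15) and Hepacam 10237 (-0.63), so the partners were scattered from near the top to near the bottom.

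The remaining genes of the endfoot pathway were read from 6 lists, each described by its count and median beside the median of all tested genes, -0.00069. Over all 14397 genes, 1401 had an unadjusted limma p under 0.05 between genotypes, which is the background for such counts in the lists. Among other members of the dystrophin complex, 0 of 12 tested genes were called (2 at an unadjusted limma p under 0.05), with a median log2 difference of -0.04 and 4 above 0. Utrn is not analysed here, and 2 of the listed genes were under the filter. Dtnb, the gene of beta-dystrobrevin, had 2084 ± 649 normalised reads in control cortex against 1612 ± 68.1 in cKO cortex (SD, n = 6 each; limma adjusted p = 0.476). Its control mean was raised by libraries 4 and 5, at 2965 and 2820, the same 2 that were highest for Dtna. Drp2, a dystrophin-related protein, had a log2 difference of 0.12 (limma adjusted p = 0.606).

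Dystroglycan needs sugar chains to bind its ligands, and 0 of 14 tested genes of that glycosylation were called (1 at an unadjusted limma p under 0.05, median 0.05). Large, a glycosyltransferase that extends those chains, had a log2 difference of 0.09 (limma adjusted p = 0.695), and Dpm1, a subunit of dolichol phosphate mannose synthase, 0.05 (limma adjusted p = 0.841). Among the ligands in the basement membrane, 0 of 14 were called (0 at an unadjusted limma p under 0.05), with the highest median of these pathway lists, 0.10, and 9 of 14 above 0. Agrn, the gene of agrin, had 2487 ± 391 normalised reads in control cortex against 2839 ± 342 in cKO cortex (SD, n = 6 each; log2 difference 0.20, limma adjusted p = 0.523). Lamc1, a laminin chain, had a log2 difference of 0.18 (limma adjusted p = 0.563).

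Of the proteins that MLC1 and GlialCAM bind or regulate, 0 of 8 genes were called (0 at an unadjusted limma p under 0.05, median -0.01). Atp1b1, a subunit of the sodium pump, had a log2 difference of 0.18 (limma adjusted p = 0.574). Clcn2, the chloride channel that GlialCAM brings to junctions, had 651 ± 43.4 and 622 ± 129 normalised reads (SD, n = 6 each; limma adjusted p = 0.781), and it is named after its values were seen.

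Other channels and transporters of endfeet gave 0 of 8 called (1 at an unadjusted limma p under 0.05), with a median of 0.01. The glutamate transporters Slc1a2 and Slc1a3 had log2 differences of -0.04 (limma adjusted p = 0.927) and 0.03 (0.909). Kcnj10, the potassium channel that shares the dystrophin scaffold, had 3976 ± 750 and 4264 ± 677 normalised reads (SD, n = 6 each; limma adjusted p = 0.739). Gja1, the gene of connexin 43, had 4293 ± 409 and 5222 ± 639 (SD, n = 6 each), a log2 difference of 0.28 (SE 0.09, limma adjusted p = 0.368, unadjusted p = 0.00796). Kcnj10 and Gja1 are named for their role after their values were seen. Among other aquaporins, 0 of 2 tested genes were called (0 at an unadjusted limma p under 0.05), Aqp11 (log2 difference -0.16, limma adjusted p = 0.581) and Aqp9 (0.22, limma adjusted p = 0.704). The other 9 were under the filter, Aqp12 and Mip being listed at 0 in all libraries.

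Markers of the cells present were set beside Aqp4. Of 12 astrocyte markers, 0 were called (2 at an unadjusted limma p under 0.05), 4 lay above 0, and the median was -0.11. Their summed level ran from 160914 to 253709 normalised reads in the controls and from 171024 to 228447 in the cKO, a sum made up mostly of Slc1a2 and Glul. These 2 genes had log2 differences of -0.04 and -0.11 (limma adjusted p = 0.927 and 0.734). Single markers differed in direction. For Gja1, at 0.28, 5 of 6 cKO libraries lay above all controls, as for Aqp4, and Gfap had a log2 difference of 0.24. Sox9, a transcription factor of astrocytes, had -0.33 (limma adjusted p = 0.448), and it is named after its values were seen. The part of astrocyte number or content in the level of Aqp4 was not tested.

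Of 11 tested genes of reactive astrocytes, 1 rose and 0 fell (median 0.20), and 7 of the 18 listed were under the filter. Over all tested genes, 0.764% were called higher in the cKO, and 0.813% had every cKO library above every control library. Serpina3n, a secreted protease inhibitor induced in reactive astrocytes, rose from 121 ± 25.4 normalised reads to 277 ± 45.4 (SD, n = 6 each), by a log2 difference of 1.20 (SE 0.13, limma adjusted p = 9.3e-05). Its controls ran from 83.9 to 153 and its cKO libraries from 206 to 339 normalised reads, without overlap. Its family holds close copies, between which reads may have been divided. Gfap, the intermediate filament gene and best-known marker of the reactive state, had 2797 ± 888 and 3226 ± 645 normalised reads (SD, n = 6 each; limma adjusted p = 0.620) and overlapped between groups. It is named after its values were seen.

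Among markers of other cells, limma called 0 of 8 endothelial, 0 of 7 mural, 0 of 5 ependymal and choroid plexus, 0 of 7 microglial, 0 of 7 oligodendrocyte, 0 of 6 excitatory neuron and 0 of 6 meningeal genes, with 1, the meningeal Igf2, at an unadjusted limma p under 0.05. edgeR and DESeq2 called Serpina3n alone among the genes of these 15 lists. The summed endothelial level ran from 2922 to 3336 normalised reads in the controls and from 2805 to 3316 in the cKO, and the mural level from 2107 to 2912 and from 2028 to 2438. The vessels that endfeet wrap thus had overlapping marker levels in both genotypes. Flt1 and Slco1a4, the highest endothelial markers, had limma adjusted p of 0.993 and 0.857, and the highest mural markers, Rgs5 and Vtn, 0.723 and 0.516. In the other lists genes with the highest levels had log2 differences of -0.14 (Foxj1) and -0.06 (Kl) for ependyma and choroid plexus, 0.07 (Csf1r) for microglia and -0.37 (Mbp) for oligodendrocytes. They were -0.17 (Camk2a) and 0.06 (Slc17a7) for excitatory neurons and 0.37 (Igf2) and 0.05 (Col1a2) for meninges, and none of these passed (limma adjusted p from 0.296 to 0.898).

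**Figure D4:**
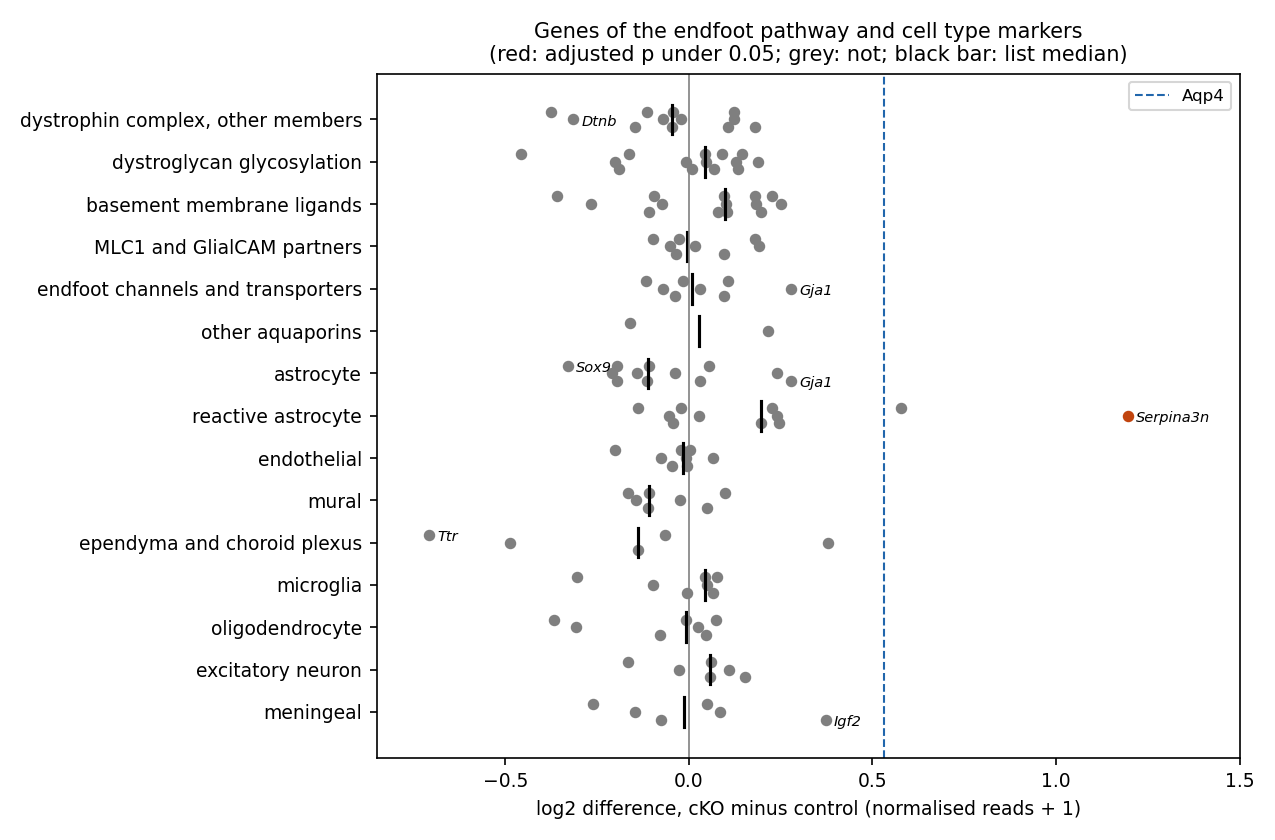
Log2 difference between cKO and control (horizontal axis, on normalised reads + 1) of each tested gene in the 15 lists, red where the limma adjusted p is under 0.05 and grey where not, with the median of each list as a black bar and Aqp4 at 0.53 as a dashed line. Serpina3n at 1.20 is the only red point, and the list medians lie between -0.14 and 0.20.

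A library can carry several of these values at once. cKO library 4 had the highest Aqp4 (3500) and Gja1 (6063) of all libraries and the lowest Hepacam (1253), Sox9 (408) and Clcn2 (371), all in normalised reads. Without it the log2 difference of Aqp4 was 0.49. The part of this library's RNA quality or cell content in these values was not tested.

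The tested genes nearest to Aqp4 on each side of its chromosome were read in the RefSeq order of GRCm38, passing over genes under the filter. Kctd1, on one side, had 1342 ± 145 and 1451 ± 149 normalised reads (SD, n = 6 each; log2 difference 0.11, limma adjusted p = 0.623). Chst9, on the other, was near the filter at 8.35 ± 4.32 and 11.7 ± 5.43 (SD, n = 6 each), a log2 difference of 0.44 (SE 0.31). Neither passed limma's threshold. A long noncoding gene whose span overlaps that of Aqp4, A830021F12Rik, is not analysed here, and neither the labels nor the file headers say whether the authors counted by strand. Reads from it could be included in the value of Aqp4.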

How the data were processed

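Per the labels' protocols, 250 ng of total RNA depleted of ribosomal RNA went into a directional library kit. Tools named in the submitters' processing notes are STAR, Bowtie, Trim Galore and bedtools, with the build mm9 and no versions or roles. Per the file headers, the authors divided the counts by DESeq2 size factors, so each value is a signal in scaled reads. All values (100%) were whole multiples of the value of 1 read within 0.01 reads, and whole reads were recovered from them. Of the authors' deposited DESeq2 comparison (log2 fold change, standard error, a Wald score, p-value and adjusted p-value), the log2 fold change and its error were used.

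Columns were assigned to a genotype and not to single samples, because Y-linked reads (a summed level above 100 of Uty, Kdm5d, Ddx3y and Eif2s3y) go against the sex labels of same-numbered samples. Genotypes were compared by limma (trend on the mean level, two-sided) on log2(normalised reads + 1), beside a term for Y-linked reads, over the 14397 genes with a mean of at least 10. Calls were made at an adjusted p (Benjamini-Hochberg, all tested genes) under 0.05. On this scale the change of weakly expressed genes is understated. The difference between library sets came from a model of 4 groups. Recovered reads were also tested with edgeR (119 genes called between genotypes, against 120) and DESeq2 (169). Lengths were found for 98.2% of tested genes. Versions were R 4.3.3, limma 3.58.1, edgeR 4.0.16 and DESeq2 1.42.0.

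The members, lists and tests were chosen with earlier results of these data known. Named genes were the 6 members, Nsd1, in each list the called genes or otherwise the 2 with the highest level, the nearest tested neighbours of Aqp4 and the 5 genes most correlated with it. Some genes that this rule names are not reported here. Alternatives were the pseudocount, the filter, TMM and quantile scaling, array weights, edgeR, DESeq2 and no term for Y-linked reads. Others were a block for the column number, removal of a trend with exon length (all exons of a gene joined), and leaving out libraries. All pairs of members and the longest coding transcript were added after the data had been seen.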

Additional observations from a re-analysis of the deposited data

Results flagged for a closer look

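Among the 6 control libraries, Aqp4 had 1 value apart from the rest. Control library 4, at 2678 normalised reads, stood above the next control, at 2107, by a gap that made up 0.664 of the whole range of the group, over Dixon's 95% critical value for 6 samples. About 1 in 20 such groups is expected to pass that value by chance. The same library had the largest share of mitochondrial ribosomal RNA (14.2% of reads) and the highest control levels of Dtna (3487) and Dmd (1903), and the part of that share in its Aqp4 level was not tested. Without it the difference between genotypes in Aqp4 was 0.61 on the log2 scale, against 0.53 with all libraries.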

How the results depend on the processing

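None of the 6 genes fell under 1180 normalised reads in any library, and the part of depth in their values was not tested. Genes called between genotypes numbered 58 with a mean of at least 50, against 120. The difference of the genotype effect between library sets, with 0 genes called, gave 3 with DESeq2, 1 with the replicate block, 0 to 7 with single libraries left out (7 without control library 6) and 4667 with array weights, whose estimate did not converge. There Dag1 (-0.49), Dtna (0.26), Mlc1 (0.42) and Hepacam (0.28) passed the threshold. Genes called between sets with and without Y-linked reads numbered 60 with DESeq2, 57 with array weights and 9 to 19 with single libraries left out, 19 of them without cKO library 3, against 11.

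Signs turned in these cases. For Aqp4 the difference between sets in the genotype effect was -0.11 without control libraries 4 and 5 and ran from -0.014 to 0.27 with single libraries left out, and the difference by Y-linked reads was 0.10 with array weights, 0.080 without control libraries 4 and 5 and -0.076 to 0.048 with single libraries left out. For Dtna the latter was 0.012 without control libraries 4 and 5. For Dmd the former was -0.14 without them and ran from -0.037 to 0.26 with single libraries left out. Over the 4 controls left without libraries 4 and 5, r of Aqp4 was 0.43 with Dag1, -0.87 with Dtna, -0.52 with Mlc1 and -0.82 with Hepacam, and in the cKO r with Dtna was -0.41 with the length trend removed. The cause of these turns was not tested.

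The libraries were not treated as paired by column number, since the labels name no shared source and not all same-numbered pairs correlated above 0.1. Their deviations correlated from 0.09 to 0.50, all positive, with 4 of 6 over 0.1, and 3 of 6 controls correlated best with their own number, so some pairing is possible. With the replicate block, 118 genes were called between genotypes, and Y-linked reads, which follow the number, could not be fitted.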
